A study of Danio rerio with 11 samples.

Results

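The mitochondrial ribosomal proteins (MRPs) were followed in livers of zebrafish larvae that overexpress human UHRF1 in hepatocytes and in livers of their WT siblings. Genes were chosen by name alone, as every Ensembl gene whose symbol starts with mrpl or mrps followed by a number. This gave 73 genes of the 32105 gene IDs in the count tables, of which 46 carry large subunit (mrpl) and 27 small subunit (mrps) names. All 73 passed the filter on low counts, and the lowest count of any of them in any library was 10.

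RNA-seq was carried out on 11 pools of livers dissected at 120 hpf. The 5 hUHRF1 pools came from EGFP-positive Tg(fabp10a:hUHRF1-EGFP)high larvae of clutches 4, 6, 7, 8 and 9, with 30 livers each except clutch 6, which had 27. The 6 WT pools came from siblings of clutches 4 to 9, with 20 livers each. The fabp10a promoter drives the transgene in hepatocytes, while a dissected liver also holds other cell types, and each library averages many larvae. The labels describe an incross of heterozygous carriers, whereas the methods of the study describe a cross of carriers with WT fish, so the number of transgene copies per larva is not known here. The human transgene was not analysed here, because the counts cover zebrafish genes.

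The mitoribosome translates the mRNAs that remain in the mitochondrial genome, all of which encode subunits of the respiratory chain or of ATP synthase. Its rRNAs are transcribed inside the organelle, but its proteins are made in the cytosol from nuclear genes and imported. Liver is rich in mitochondria, and hepatocytes use oxidative phosphorylation to supply gluconeogenesis, urea synthesis and lipid metabolism. Some MRPs descend from bacterial ribosomal proteins, while others were added during the evolution of mitochondria.

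Libraries held 15285359 to 23322479 counts in WT and 9064943 to 19370497 in hUHRF1. The MRP genes together received 16647 to 35288 of these in WT and 14220 to 38826 in hUHRF1. TMM factors, which scale libraries so that most genes do not differ, lay between 1.12 and 1.71 in hUHRF1 and between 0.672 and 0.978 in WT, with no overlap. The choice of scale therefore moved every gene. The median L2FC (log2 of hUHRF1 over WT) of all 15838 tested genes was 0.05 on the TMM scale and 0.83 when libraries were scaled by their summed counts alone. Of all tested genes 14.6% were called lower and 14.5% higher with TMM, against 3.85% and 52.1% with summed counts. Directions below are on the TMM scale unless stated, and normalised read counts (CPM, scaled to a common library size) use it too. The 7 hepatocyte markers summed to 74740 to 113100 CPM in WT and 22460 to 36700 CPM in hUHRF1, and all 7 fell. The 4 exocrine pancreas markers found all rose, with sums of 300.3 to 1271 CPM in WT and 614.9 to 5609 CPM in hUHRF1. Of the 6 macrophage gene IDs tested, several of which share the name mfap4, 4 rose. Sums over the macrophage IDs were 10.3 to 28.1 CPM in WT and 27.2 to 41.1 CPM in hUHRF1. Most of the WT sum came from the mfap4 ID ENSDARG00000090557, which was not called (means of 12.9 CPM in WT and 14.8 CPM in hUHRF1). No marker of the 9 cell types examined was at 0 in every library. The part of these shifts in the MRP values was not tested, and in bulk livers fewer cells of a type and less RNA per cell cannot be told apart.

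On the TMM scale most MRP genes were modestly lower in hUHRF1 livers, with a median L2FC of -0.35, or 78.4% of WT, whereas the median turned to 0.42 with summed counts alone. Relative to the median of all genes, the MRP median stood at -0.40 with TMM and -0.42 with summed counts. In each, 63 of the 73 genes lay below the all-gene median. A change of scale multiplies all counts of a library alike. The closeness of these values therefore follows from arithmetic and would hold for any list of genes. On the TMM scale 16 genes fell and 1 rose by edgeR's quasi-likelihood test (adjusted p under 0.05), and 56 were not called. That is 21.9% lower against 14.6% of all tested genes, and 1.37% higher against 14.5%, where 29.1% of all tested genes were called in either direction. With clutch as a block, 31 fell and 2 rose, and all 16 genes that fell without the block were among the 31. The block also raised the share called over all tested genes, to 18% lower and 17.1% higher. With summed counts alone, 0 fell and 27 rose, against 3.85% and 52.1% of all tested genes. With only genes of at least 10 counts in every library, 11 of the 73 fell and 3 rose, against 16.6% and 17.5% of all genes tested. In that fit the share of MRP genes that fell was below the share of all genes.

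Estimates of all 73 genes ran from -1.12 to 1.20, with quartiles of -0.54 and -0.09, and 60 were below 0. The SE of an L2FC had a median of 0.201 and ranged from 0.129 to 0.49. The 16 genes that fell had means of 46% to 70.9% of WT, and none was beyond an L2FC of 1.5 in size. The threshold crossed a dense part of the list, because mrps17 was the last gene called at an adjusted p of 0.0473 and mrps9 the first not called at 0.0508. A further 13 genes below 0 and 2 above 0 had adjusted p between 0.05 and 0.1. In 9 genes every hUHRF1 pool was below every WT pool, and in 1 every hUHRF1 pool was above, against 9.02% and 8.05% of all tested genes. In 33 genes the hUHRF1 pool was lower than its WT sibling pool in all 5 clutches that had both, and in 2 it was higher in all 5, against 20.9% and 20.8% of all tested genes.

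**Figure D1:**
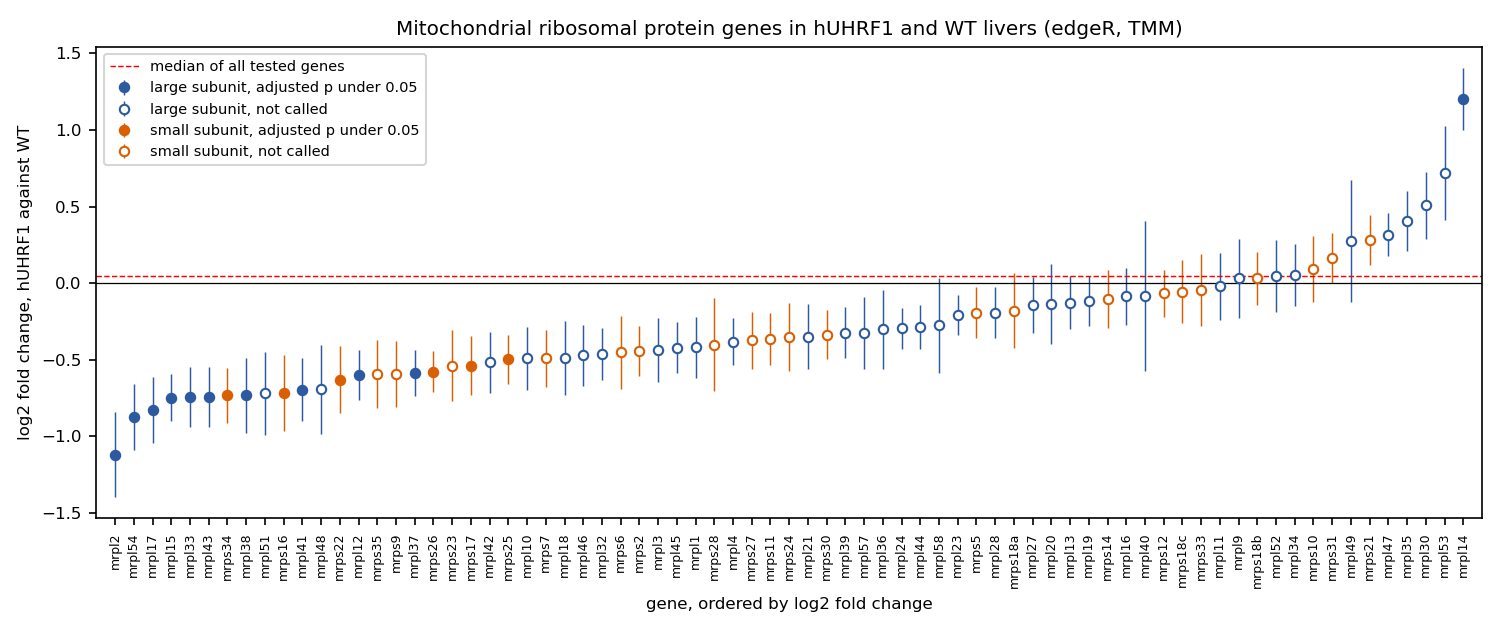
The vertical axis gives the L2FC of the 73 MRP genes on the TMM scale with bars of 1 SE, coloured by subunit name and ordered by size, with filled points for genes at an adjusted p under 0.05 and a dashed line at the median of all tested genes. Most estimates lie below 0, 16 genes passed the test on that side and mrpl14 alone on the other. With libraries scaled by summed counts 0 fell and 27 rose, against 3.85% and 52.1% of all tested genes.

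Genes of the large and small subunit names moved by similar amounts. Of the 46 large subunit genes 10 (21.7%) fell (17 with the clutch block) and 1 rose, with a median L2FC of -0.32. Of the 27 small subunit genes 6 (22.2%) fell (14 with the block) and 0 rose, with a median of -0.37. Over all tested genes 14.6% fell and 14.5% rose, and 18% fell with the block. The summed large subunit CPM per small subunit CPM was 1.565 ± 0.0558 (SD, n = 6) in WT and 1.54 ± 0.0837 (SD, n = 5) in hUHRF1, and the groups overlapped. The names follow the zebrafish annotation, and in the mammalian mitoribosome the proteins of mrps30 and mrps18a sit in the large subunit. Genes were also split by numbering alone, with names up to mrpl36 and mrps21 taken as those that follow bacterial ribosomal proteins. No protein was compared with bacterial ones here, so single genes, such as mrps24, may be misplaced. Of the 42 genes classed as having a bacterial counterpart 7 fell and 1 rose, with a median of -0.25. Their share lower without the clutch block, 16.7%, was close to the 14.6% of all tested genes. With the block, mrpl3, mrpl18, mrpl32, mrps2, mrps6, mrps7 and mrps9 of this class were called lower as well. That put its share lower above the 18% of all tested genes. Of the 31 genes classed as specific to mitochondria 9 (29%) fell and 0 rose without the block, with a median of -0.42. With the block mrpl45, mrpl46, mrpl48, mrpl51, mrps23, mrps27, mrps30 and mrps35 of this class were also called lower, again a share above 18%. The difference between the classes was not tested.

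The only MRP gene that rose on the TMM scale was mrpl14 (ENSDARG00000068886) of the large subunit, whose protein has a bacterial counterpart at the interface between the subunits. Its level in the WT pools ran from 4.96 to 9.84 CPM with a median of 8.38 CPM. The hUHRF1 pools of clutches 4, 6, 7, 8 and 9 had 15.6, 22.4, 23.1, 16.65 and 15.3 CPM. Every hUHRF1 pool was above every WT pool, and each hUHRF1 pool was above its own sibling pool. The mean was 8.09 ± 1.83 CPM (SD, n = 6) in WT and 18.6 ± 3.81 CPM (SD, n = 5) in hUHRF1, an L2FC of 1.20 with an SE of 0.201 (edgeR quasi-likelihood adjusted p = 0.000684). The gene was called higher under all 22 alternatives, including clutches 4 to 6 alone (L2FC 1.21), clutches 7 to 9 alone (1.17) and summed counts alone (1.99). Its RefSeq neighbours lrrfip2 and capn1a, with L2FC of 0.35 and -0.04, were not called.

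Among the large subunit genes that fell, mrpl15 (ENSDARG00000101306) had the smallest adjusted p. WT pools lay between 27.2 and 33.8 CPM with a median of 28.1 CPM, and the hUHRF1 pools in clutch order had 14.7, 18.6, 21.4, 19.1 and 14.9 CPM. The groups did not overlap, with an L2FC of -0.75, an SE of 0.152 and an edgeR quasi-likelihood adjusted p of 0.00253. The largest decrease was that of mrpl2 (ENSDARG00000062568), whose bacterial counterpart lies near the peptidyl transferase centre. Its WT pools ran from 33.5 to 89.7 CPM with a median of 45.0 CPM, and its hUHRF1 pools had 19.0, 16.2, 37.1, 25.1 and 20.4 CPM. Both groups were highest in clutch 7, so that the hUHRF1 pool of that clutch overlapped the WT range although it was below its own sibling pool. The L2FC was -1.12 with an SE of 0.276 (edgeR adjusted p = 0.00803), and without the WT pool of clutch 7 it was -0.89 (adjusted p = 0.0129).

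Among genes specific to mitochondria, mrpl54 (ENSDARG00000071468) fell from WT pools of 17.2 to 25.2 CPM, with a median of 19.3 CPM, to 8.02, 7.83, 15.4, 14.2 and 8.85 CPM. All hUHRF1 pools were below all WT pools, and those of clutches 7 and 8 were the nearest to WT. Its L2FC was -0.87 (SE 0.214, edgeR adjusted p = 0.00766). The level of mrpl37 (ENSDARG00000062916) was 37.4 to 53.2 CPM in WT, with a median of 39.9 CPM, and 27.7, 30.2, 29.0, 30.3 and 25.1 CPM in the hUHRF1 pools. These pools were close to each other and below all WT pools (L2FC -0.58, SE 0.149, edgeR adjusted p = 0.00951). The gene mrpl43 (ENSDARG00000076334) had 7.56 to 12.8 CPM in WT with a median of 9.39 CPM, and 4.35, 7.11, 5.51, 5.60 and 6.32 CPM in hUHRF1. These groups were also separate, with an L2FC of -0.74 and an adjusted p of 0.0113 in the edgeR fit. Its RefSeq neighbour twnk, the mitochondrial DNA helicase, fell as well, with an L2FC of -0.83 (adjusted p = 0.015). Called neighbours of the other MRP genes that fell went both ways. Those of mrpl15 (lypla1, L2FC -1.38), mrpl33 (si:dkey-16j16.4, -1.62) and mrpl38 (fdxr, -1.38) fell, while those of mrpl54 (malt2, 0.85) and mrpl17 (prss59.2, 1.88) rose.

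The stalk proteins recruit translation factors to the ribosome. For mrpl12, the stalk protein that in mammals also binds the mitochondrial RNA polymerase, WT pools had 38.5 to 58.2 CPM with a median of 50.4 CPM, and hUHRF1 pools had 25.7, 28.1, 33.2, 39.1 and 34.6 CPM. The gene fell with an L2FC of -0.60 (SE 0.164, edgeR adjusted p = 0.0143), and the overlap came from the hUHRF1 pool of clutch 8 and the WT pool of clutch 5. The other stalk genes were not called, with an L2FC of -0.49 for mrpl10 (adjusted p = 0.0892) and -0.02 for mrpl11 (0.953), a gene whose lowest hUHRF1 pool of 4.77 CPM was close to its lowest WT pool of 4.54 CPM. mrpl17 and mrpl33 fell, with L2FC of -0.83 and -0.74, and in the RefSeq annotation mrpl33 overlaps rbks, a gene that fell with an L2FC of -0.97. mrpl41 fell by 0.70 and mrpl38 by 0.73 on the log2 scale.

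In the small subunit, mrps26 (ENSDARG00000039719), a gene specific to mitochondria, was nearly even among the hUHRF1 pools. These had 12.6, 12.9, 13.6, 12.7 and 11.9 CPM, while WT pools ran from 15.7 to 20.2 CPM with a median of 19.8 CPM. The groups did not overlap, and the L2FC was -0.58 (SE 0.133, edgeR adjusted p = 0.00528). mrps34 (ENSDARG00000057910), in which human mutations impair mitochondrial translation, had 19.9 to 31.0 CPM in WT with a median of 22.4 CPM. Its hUHRF1 pools had 13.3, 11.4, 17.1, 14.4 and 17.9 CPM, again all below WT, with an L2FC of -0.73 (SE 0.18, edgeR adjusted p = 0.00801). mrps16 and mrps22, both mutated in human defects of oxidative phosphorylation, fell by 0.72 and 0.63 on the log2 scale with adjusted p of 0.0448 and 0.0417. The hUHRF1 and WT pools overlapped in both, and each was called in 3 of the 11 fits that left out 1 library. mrps25, whose pools were separate, fell by 0.50 (adjusted p = 0.0327).

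The members of the mrps18 family are paralogs related to the same bacterial protein. None was called, with L2FC of -0.18 for mrps18a, 0.03 for mrps18b and -0.06 for mrps18c. Other genes with known functions were not called either. These were mrps12, a component of the decoding centre (L2FC -0.07, edgeR adjusted p = 0.777), mrpl58, a peptidyl-tRNA hydrolase that rescues stalled ribosomes (-0.27, 0.537), and mrpl3 and mrpl44, which are mutated in human cardiomyopathies (-0.43 and -0.28, adjusted p = 0.131 and 0.15). The genes mrps30 and mrps31, named with mrpl12 for their mean CPM, which is not corrected for length, were not called. mrps30 had a mean of 43.3 CPM in WT and 34.2 CPM in hUHRF1 (L2FC -0.34, adjusted p = 0.13) and mrps31 had 38.4 and 43.1 CPM (0.17, adjusted p = 0.478). With the clutch block mrpl3 and mrps30 were called lower (edgeR adjusted p = 0.0182 and 0.0371).

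Above 0 the largest estimates after mrpl14 were not called. The level of mrpl53 was 1.17 to 4.49 CPM in WT with a median of 3.02 CPM, and 4.56, 4.68, 3.07, 6.16 and 5.14 CPM in hUHRF1. Each hUHRF1 pool was above its sibling pool, but the groups overlapped, and the L2FC of 0.72 had an edgeR adjusted p of 0.0948, against 0.0457 with the clutch block. mrpl30 had 20.1 to 32.3 CPM in WT with a median of 27.7 CPM, and 22.3, 32.8, 51.3, 51.7 and 36.1 CPM in hUHRF1 (L2FC 0.51, adjusted p = 0.0936). In this gene the hUHRF1 pool of clutch 4 was below its sibling and those of clutches 7 and 8 were the highest. mrpl47 had an L2FC of 0.32 and mrpl35 of 0.40, the latter raised by 1 hUHRF1 pool of 21.4 CPM in clutch 6.

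**Figure D2:**
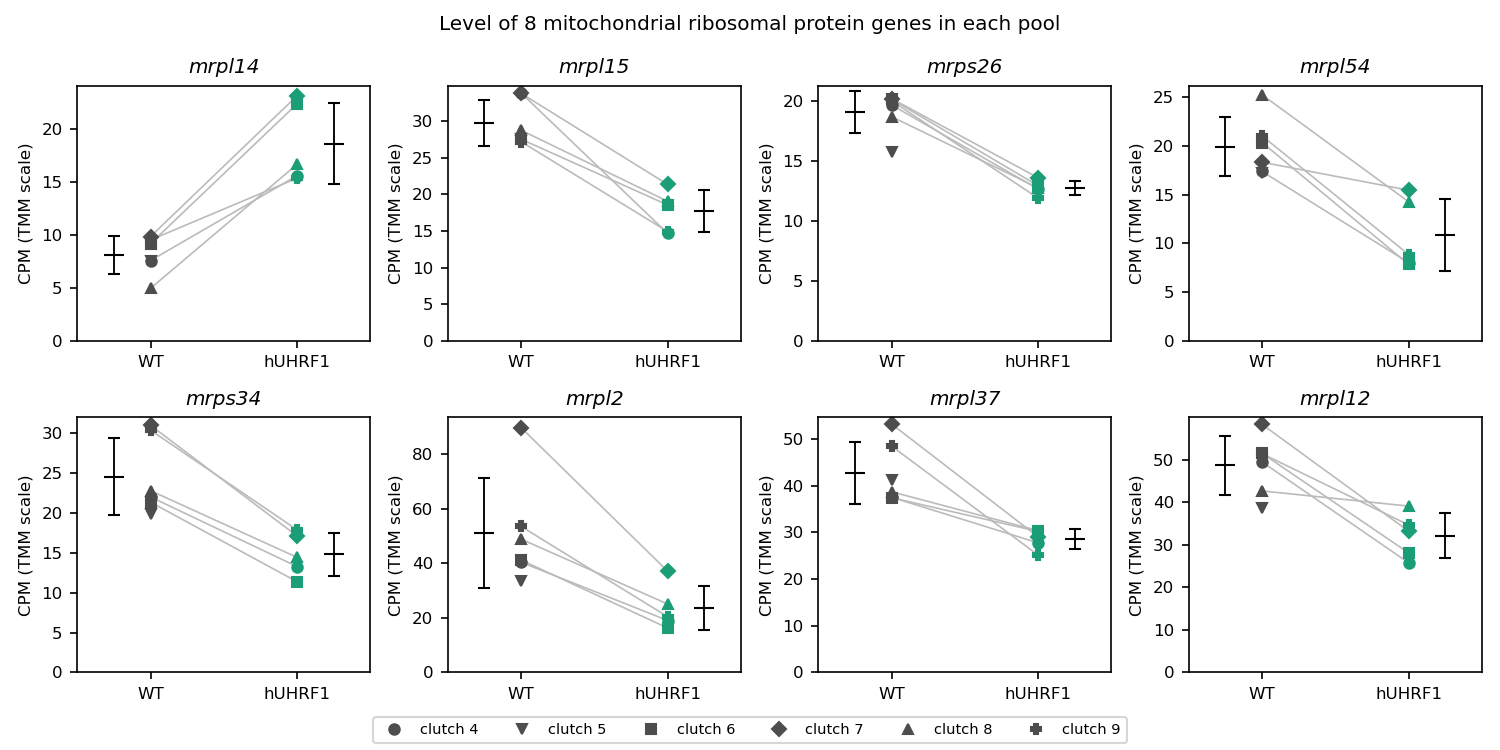
CPM on the TMM scale in each pool for 8 MRP genes, with pools of the same clutch joined by a line and bars giving the mean and SD of each group. Every hUHRF1 pool of mrpl14 is above the WT pools, while the hUHRF1 pools of mrpl15, mrps26, mrpl54, mrps34 and mrpl37 are below the WT pools and those of mrpl2 and mrpl12 overlap them.

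Of the 17 genes called, 11 were called in each of the 11 fits that left out 1 library. The exceptions were mrpl41 (10 of 11 fits), mrps25 (6), mrpl38 (4), mrps22 (3), mrps17 (3) and mrps16 (3). Their highest edgeR adjusted p was 0.05 for mrpl41 without the hUHRF1 pool of clutch 7, 0.0781 for mrps25 without hUHRF1 clutch 9, 0.0818 and 0.0934 for mrpl38 and mrps16 without WT clutch 9, and 0.0976 and 0.11 for mrps22 and mrps17 without hUHRF1 clutch 6. All 17 were called with the clutch block. The 16 genes that fell had estimates below 0 in clutches 4 to 6 and in clutches 7 to 9, whose titles are worded differently. They were chosen in a fit to these same libraries, so the shared sign is no separate support. The first set holds only 2 hUHRF1 pools. Of the 73 MRP genes 6 fell in the first set alone and 3 in the second, where 5.71% and 8.72% of all genes tested in those fits were lower. The interaction of condition and clutch set was called for 0 of the 73 MRP genes in edgeR, with 0 at an unadjusted p under 0.05. It was called for 0% of all 15838 tested genes, of which 604 had an unadjusted p under 0.05, so the absence of calls does not show equal effects in the sets.

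The mRNAs that the mitoribosome translates had lower estimates than the mRNAs of its proteins, a difference that was not tested. Of the 13 mitochondrially encoded mRNAs 8 fell (12 with the clutch block) and 0 rose on the TMM scale, with a median L2FC of -0.87, or 54.6% of WT, against the -0.35 of the MRP genes. Shares over all tested genes were 14.6% lower and 14.5% higher, and 18% lower with the block. With summed counts alone 0 fell, against 3.85% of all tested genes. The median was then -0.03, a difference of -0.45 from the MRP median, against -0.52 with TMM. The largest decrease was that of mt-co1, the catalytic subunit of cytochrome c oxidase. Its WT pools ran from 7667 to 13000 CPM with a median of 10830 CPM, and its hUHRF1 pools had 5880, 4928, 3224, 4151 and 4065 CPM, all below WT (L2FC -1.26, SE 0.245, edgeR adjusted p = 0.00185). mt-cyb, the mitochondrially encoded subunit of complex III, fell by 0.91 with an adjusted p of 0.0494, and of 11 fits with 1 library removed, 8 no longer called it (adjusted p of 0.0253 to 0.113). The ATP synthase genes mt-atp6 and mt-atp8 were not called, with L2FC of -0.80 (adjusted p = 0.14) and -0.41 (0.666). With the clutch block mt-atp6 was called lower (L2FC -0.96, edgeR adjusted p = 0.0232) and mt-atp8 was not (adjusted p = 0.0719). The mitochondrial rRNAs were not analysed here.

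**Figure D3:**
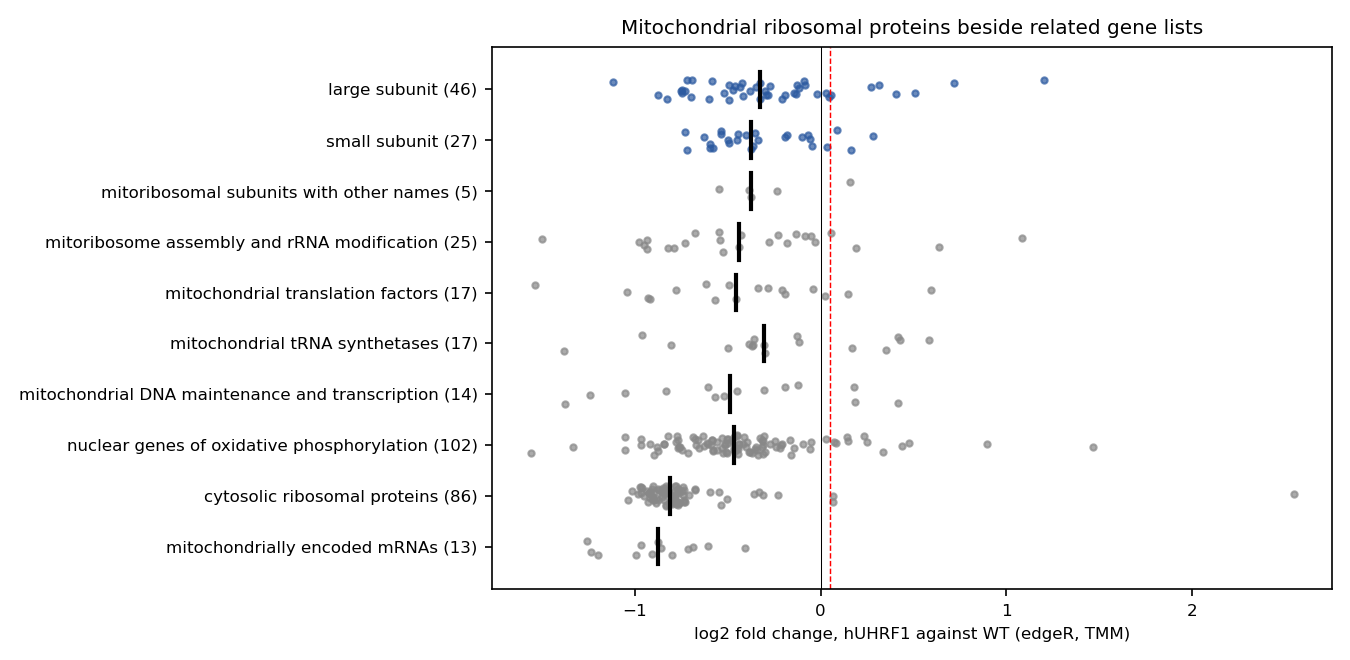
The horizontal axis gives the L2FC on the TMM scale of the MRP genes by subunit and of related gene lists, with 1 point per tested gene, a bar at each list median and a dashed line at the median of all tested genes. The medians are -0.35 for the MRP genes, -0.87 for mitochondrially encoded mRNAs and 0.05 for all tested genes, and with summed counts alone these become 0.42, -0.03 and 0.83.

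Summed over genes, the MRP level was 1342 to 1775 CPM in the WT pools with a median of 1493 CPM, and 1008, 1179, 1396, 1383 and 1198 CPM in the hUHRF1 pools of clutches 4, 6, 7, 8 and 9. The groups overlapped, although each hUHRF1 pool was below its sibling pool. The means were 1539 ± 180 CPM (SD, n = 6) and 1233 ± 161 CPM (SD, n = 5), a ratio of 0.801 on the TMM scale. As a share of all counts without TMM, the MRP genes took 0.102% to 0.151% in WT and 0.141% to 0.2% in hUHRF1, and here the hUHRF1 pool was the higher in each of the 5 clutches. The mitochondrially encoded mRNAs summed to 19760 to 31060 CPM in WT with a median of 25960 CPM, and to 15170, 13380, 8471, 11080 and 9900 CPM in hUHRF1. These groups did not overlap on the TMM scale, with a ratio of means of 0.451. Without TMM they took 2.01% ± 0.367 (SD, n = 6) of the counts in WT and 1.60% ± 0.56 (SD, n = 5) in hUHRF1, and the hUHRF1 pool was the lower in 4 of 5 clutches.

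A ratio of both sums within a library does not depend on the scale. Mitochondrially encoded mRNA per MRP count was 12.01 to 21.6 in WT with a median of 18.1, and 15.1, 11.3, 6.07, 8.01 and 8.26 in the hUHRF1 pools. Each hUHRF1 pool was below its own sibling, at 69.7%, 89%, 50.5%, 41.8% and 47.6% of it, but the pools of clutches 4 and 6 were inside or near the WT range. Most of the mitochondrial mRNA sum came from mt-co1, mt-co2 and mt-co3, with WT means of 10640, 5123 and 4324 CPM of 25690. These mRNAs also had the largest decreases. The ratio therefore mainly describes them, and it was not computed for the other mitochondrial mRNAs alone. On the TMM scale, the order of the hUHRF1 pools from low to high MRP level was clutch 4, 6, 9, 8 and 7. The pool with the highest MRP level there had the lowest mitochondrial mRNA level. As shares of counts without TMM, both were highest in the hUHRF1 pool of clutch 6, at 0.2% and 2.28%. With 5 pools these orders are a description. By clutch, the summed MRP level of hUHRF1 on the TMM scale was 70.1%, 76.1%, 78.6%, 98.9% and 69.1% of its sibling. Clutch 8 stood apart, with 38 of the 73 genes below the sibling pool against 58 to 63 in the others, while its mitochondrial mRNAs were at 41.4% of the sibling level.

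**Figure D4:**
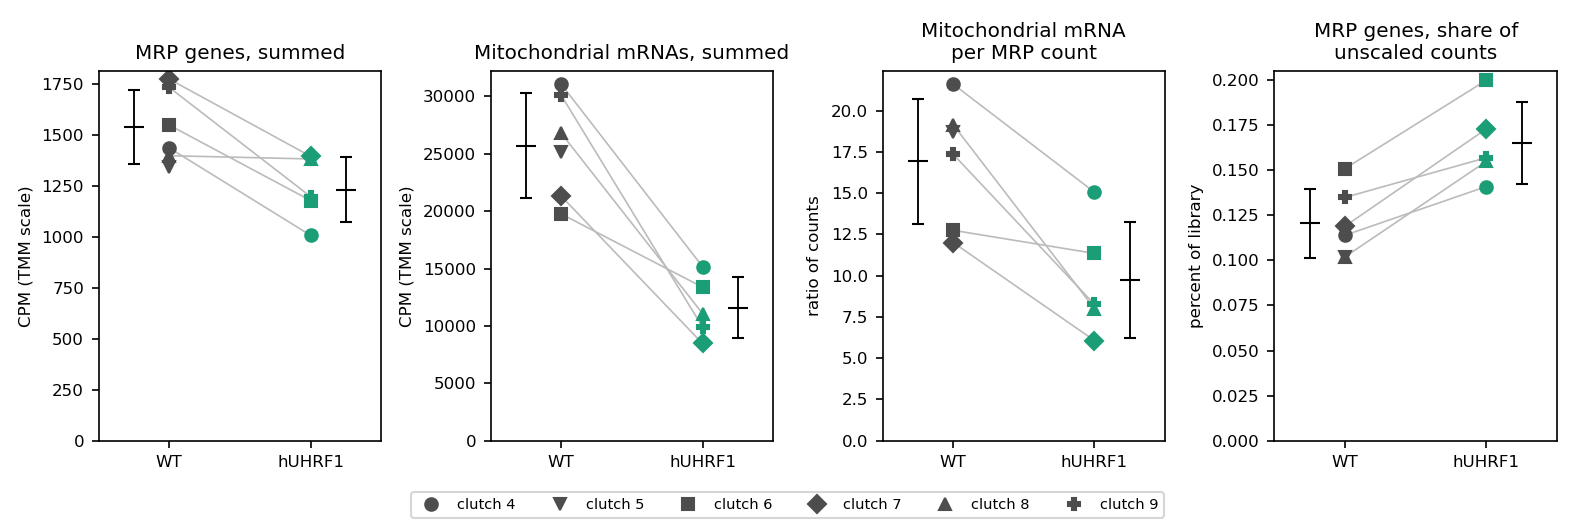
Values in each pool of the summed MRP genes and the summed mitochondrially encoded mRNAs in CPM, of their ratio and of the MRP percentage of unscaled counts, with pools of a clutch joined and bars giving the mean and SD. On the TMM scale hUHRF1 is below WT for MRP genes in each of 5 clutches, without scaling their share is above WT in each, and the ratio, which needs no scale, is below WT in each.

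**Figure D5:**
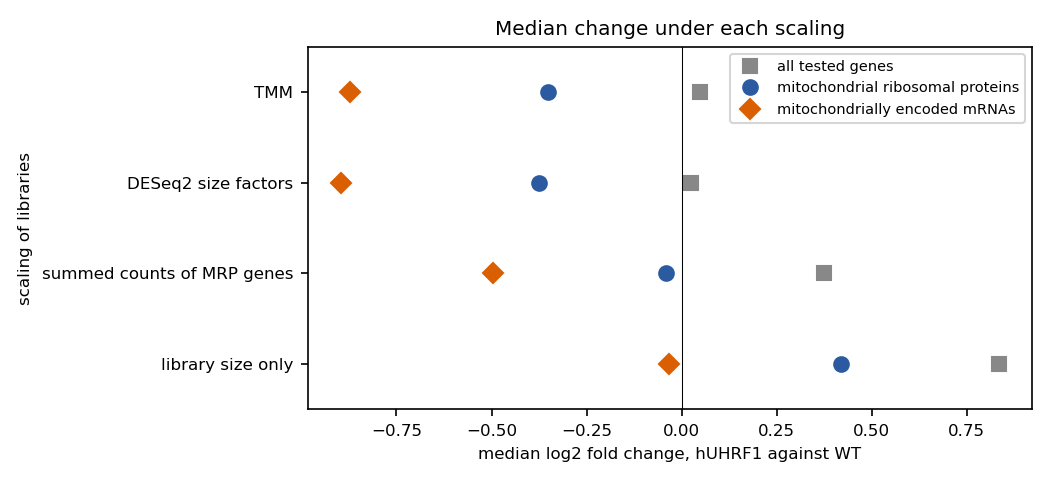
Median L2FC of all tested genes, of the MRP genes and of the mitochondrially encoded mRNAs under 4 ways of scaling the libraries. The MRP median moves from -0.35 with TMM to 0.42 with summed counts alone, and under each scaling it lies below the all-gene median and above that of the mitochondrial mRNAs. A change of scale moves all genes of a library alike, so this order could hardly differ between scalings.

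The hUHRF1 effect was also compared between the sets of clutches. In clutches 4 to 6 alone the median L2FC was -0.44 for both lists, and in clutches 7 to 9 alone it was -1.37 for the mitochondrial mRNAs and -0.33 for the MRP genes. The interaction of condition and set was not called in edgeR for any of the 13 mRNAs (smallest unadjusted p = 0.0228). An unadjusted p under 0.05 was found for 6 of them, against 604 of all 15838 tested genes. Clutch set and anything else that separated these collections cannot be told apart. The methods of the study name different sequencers without saying which library was run on which.

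Other genes of mitochondrial translation had medians below 0 on the TMM scale, which turned above 0 with summed counts alone. Set against the all-gene median, the 4 lists described here stood at -0.42 to -0.54 with TMM and at -0.43 to -0.55 with summed counts. That closeness follows from the arithmetic of scaling. Over all tested genes 14.6% fell and 14.5% rose with TMM. Of the 5 mitoribosomal subunits with other names only gadd45gip1 fell (L2FC -0.54, edgeR adjusted p = 0.0108). Of 17 translation factors 7 fell and 1 rose, with a median of -0.45. The inner membrane insertase gene oxa1l, which receives the newly made proteins, fell by 0.93 (adjusted p = 0.00241), and gfm1, a mitochondrial elongation factor, fell by 1.04 (0.00294). slirp, a partner of lrpprc in mRNA stability, rose with an L2FC of 0.59 (0.0482). Of 25 assembly and rRNA modification genes 6 fell and 1 rose, with a median of -0.44. The RNA helicase gene dhx30 fell by 1.499 (adjusted p = 0.00101). malsu1, whose human protein binds MRPL14 during assembly of the large subunit, fell by 0.93 (adjusted p = 0.00659), the opposite direction to mrpl14, and ybey, an rRNA endonuclease gene, rose by 1.08 (0.0134). Of 14 genes for mitochondrial DNA maintenance and transcription 6 fell and 8 were not called, with a median of -0.49. This list also held regulators of nuclear genes, of which esrra and ppargc1b were among the 6 (L2FC -1.05 and -0.61). The smallest adjusted p were those of tfb2m, the initiation factor of mitochondrial transcription (L2FC -1.24, edgeR adjusted p = 2.46e-05), and mterf2 (-1.37, 0.000118). Among those not called, tfam had an L2FC of -0.12, polg of 0.18 and polg2 of -0.19.

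Many products of the nuclear genes of oxidative phosphorylation assemble with the mitochondrially encoded subunits. The list also held assembly factors and genes of complex II, which has no mitochondrially encoded subunit. These nuclear genes had a median L2FC of -0.46 on the TMM scale. With summed counts alone the median was 0.32. The difference from the all-gene median was -0.51 in both, a value that scaling leaves nearly unchanged for any list. Of 102 tested 32 fell and 0 rose with TMM, against 1 and 24 with summed counts. Over all tested genes 14.6% fell and 14.5% rose with TMM, and 3.85% and 52.1% with summed counts. The largest decrease was that of cox7a2l, a supercomplex assembly factor, with an L2FC of -1.56. Per MRP count, their sum was 9.02 ± 0.555 (SD, n = 6) in WT and 7.79 ± 0.76 (SD, n = 5) in hUHRF1, lower in each of 5 clutches although the groups overlapped.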

How the data were processed

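RNA from pooled larval livers was depleted of rRNA before library preparation. According to the methods and labels, the authors trimmed adaptors, aligned reads to GRCz10 with HISAT2 at default parameters and used HTSeq for counting per gene. The deposited tables hold these raw counts without normalization. The submitters' notes also name MultiQC 1.7 and DESeq2. Whether counting used strand is not given in the sources used here, so genes that overlap others are uncertain.

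The analysis used edgeR 4.0.16 and limma 3.58.1 under R 4.3.3. Genes were kept by filterByExpr (minimum count 10, minimum total 15), which left 15838 of 32105 IDs. Libraries were scaled by TMM, and hUHRF1 was compared with WT by the quasi-likelihood test with Benjamini-Hochberg adjustment across the whole table, without a block. A gene was called at an adjusted p-value under 0.05. Intervals are SD or SE. CPM values use the TMM scale and are not corrected for length, so levels were compared between groups within a gene, and mean CPM across genes served only to choose names. No 2 libraries held identical counts. Pools are separate clutches within each group, as the labels state. Fits were tested on simulated data with known changes. The simulated libraries held no shift of scale between the groups and no clutch effect, so neither was checked.

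Names came from a table of Ensembl IDs, which named 26269. It held 75 MRP names, and the IDs of 73 were in the count tables. Mrps15 and mrpl22 were not analysed here. The names of mrm3, mterf1, aars2 and tars2 did not match. The members and lists were chosen with earlier results of these data known. Genes named are those called higher, the 10 called lower with the smallest adjusted p, the 5 largest and 5 smallest L2FC, the 3 highest mean CPM, a list of 13 genes with known roles, 4 mitochondrially encoded genes and the 2 called genes with the smallest adjusted p of each other list. Further genes named outside this rule were chosen after their values were seen (mrpl38, mrps9, mrps17, mrps25, slirp, ybey, twnk, gatb, gatc, qrsl1, esrra, ppargc1b, tfam, polg, polg2 and neighbours). Cell type lists held 9 types. Neighbours were taken by name from RefSeq (assembly GRCz12tu), which is not the build of the counts, so no coordinates are given.

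Clutch numbers from the labels pair the pools. Deviations of same-clutch pools from their group means correlated over genes at 0.206 to 0.481. Counts with clutch as a block are given for the MRP genes, both subunits and the mitochondrially encoded mRNAs. Those of the classes by numbering and of the other lists come from the fit without the block. The alternatives were DESeq2 1.42.0 and its size factors, summed counts alone as the scale, TMM without mitochondrially encoded genes, other filters on low counts, the clutch block, clutch set as a term, each set alone, and leaving out each library. Scaling by the summed counts of the MRP genes was added after seeing the data.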

Additional observations from a re-analysis of the deposited data

Results flagged for a closer look

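The search covered 80 sets of pools, made of the named MRP and mitochondrially encoded genes and of summed levels, ratios and shares, in each group. Of these, 4 held a pool farther from the others than Dixon's test allows at 95%, where chance flags about 1 set in 20. For mrps26 the lowest WT pool, clutch 5, had 15.7 CPM. For mrpl2 the highest WT pool, clutch 7, had 89.7 CPM. For mrpl35 the highest hUHRF1 pool, clutch 6, had 21.4 CPM. For mrpl11 the lowest hUHRF1 pool, clutch 7, had 4.77 CPM. None of 33 genes compared between the sets of clutches moved in opposite directions in all pools of both sets or passed the test of the difference.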

How the results depend on the processing

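Scaling decided the sign of the MRP median L2FC, which was 0.42 with summed counts alone and -0.0405 when libraries were scaled by the MRP genes themselves, an alternative chosen after seeing the data. Leaving out 1 library kept it between -0.44 and -0.29. MRP genes lower in hUHRF1 numbered 0 with summed counts, 31 with the clutch block, 32 with clutch set as a term, 6 in clutches 4 to 6 alone, 3 in clutches 7 to 9 alone, 4 with MRP scaling and 12 to 17 without 1 library. The subsets hold fewer libraries. Over all tested genes the share lower was 3.85% with summed counts, 18% with the block and 17.6% with clutch set as a term. It was 5.71% in clutches 4 to 6 alone, 8.72% in clutches 7 to 9 alone and 7.25% with MRP scaling. Without 1 library it was 12.2% to 14.6%, without a filter 7.73%, and with at least 10 counts in every library 16.6%. MRP genes lower numbered 13 without a filter and 11 of 73 with at least 10 counts in every library, the latter a smaller share than that of all genes. MRP genes higher numbered 27 with summed counts, 2 with the block, 3 with at least 10 counts in every library, 7 with MRP scaling and 1 to 2 without 1 library. The shares of all tested genes higher were 52.1%, 17.1%, 17.5%, 25% and 12.1% to 14.4% in that order. Large subunit genes lower numbered 0, 17 (block), 18 (clutch set), 4 (clutches 4 to 6), 2 (clutches 7 to 9), 4 (MRP scaling) and 9 to 11 without 1 library. Small subunit genes lower numbered 0, 14, 14, 2, 1, 0 and 2 to 6 in the same order, 3 without a filter and 2 with at least 10 counts in every library. Mitochondrial mRNAs lower numbered 0 with summed counts, 12 with the block, 10 with clutch set as a term, 1 in clutches 4 to 6, 10 in clutches 7 to 9, 4 with MRP scaling and 5 to 10 without 1 library. The replicate block by clutch changed no call to the opposite side.

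With summed counts alone the L2FC turned positive for mrpl15 (0.0414), mrps26 (0.21), mrps34 (0.0486), mrpl37 (0.22), mrpl43 (0.0497), mrpl33 (0.0263), mrpl12 (0.17), mrps30 (0.45), mrpl41 (0.0737), mrpl11 (0.76), mrps22 (0.11), mrps18a (0.62), mrpl10 (0.31), mrps18c (0.72), mrpl58 (0.52), mrps12 (0.74), mrpl44 (0.49), mrps16 (0.0801), mrpl3 (0.33), mt-atp6 (0.0622), mt-atp8 (0.44) and gadd45gip1 (0.23). With MRP scaling it did so for mrpl11 (0.32), mrps18a (0.16), mrps18c (0.27), mrpl58 (0.10), mrps12 (0.27) and mrpl44 (0.0501). Genes near 0 changed sign elsewhere. mrps18b was -0.0014 with DESeq2, -0.0356 with the block, -0.0368 in clutches 4 to 6 and -0.0335 to 0.12 without 1 library. mrpl11 was 0.0546 with at least 10 counts, 0.0201 with clutch set, 0.10 in clutches 7 to 9 and -0.13 to 0.10 without 1 library. mrps18c was 0.0213 with at least 10 counts and -0.18 to 0.0351 without 1 library. mrps12 was 0.0099 with at least 10 counts and 0.0781 in clutches 4 to 6, where mrps18a was 0.0007. The cause was not tested. Depth was at least 10 counts for each MRP gene in each library.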

Other observations

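Cytosolic ribosomal protein genes were lower by more than MRP genes on the TMM scale, with a median L2FC of -0.81 and 69 of 86 genes lower, whereas with summed counts alone the median was -0.03 and 0 were lower. Within a library, which needs no scale, cytosolic ribosomal protein counts per MRP count were 49.5 ± 10.3 (SD, n = 6) in WT and 35.5 ± 4.89 (SD, n = 5) in hUHRF1, lower in each of 5 clutches although the groups overlapped. Of the 3 genes above 0 on the TMM scale, rps27l was called higher, with an L2FC of 2.55 and every hUHRF1 pool above every WT pool. A list of 17 genes held mitochondrial tRNA synthetases and the amidotransferase genes gatb, gatc and qrsl1, which are not synthetases. Of these 17 genes 3 (17.6%) fell and 0 rose on the TMM scale, with a median of -0.30, against 14.6% and 14.5% of all tested genes. With summed counts 0 fell and 4 rose, against 3.85% and 52.1%. nars2 fell by 1.38 and sars2 by 0.96 on the log2 scale (edgeR adjusted p = 0.00109 and 0.00718). The remaining gene that fell was gatb, with an L2FC of -0.80 (edgeR adjusted p = 0.0211).

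In the RefSeq annotation 22 of the 73 MRP genes overlap the span of another gene, 8 of them among the 16 that fell. Of these 8, only mrpl33 overlaps a gene tested here under its RefSeq name, rbks. mrpl15, mrps26, mrps22, mrps16 and mrps17 overlap only RefSeq LOC models. Whether the annotation used for counting held such models is not known here. The genes mrps11 and mrpl46 are the only MRP genes next to each other. Both had estimates below 0 and were not called, with L2FC of -0.37 and -0.47. Reads of overlapping genes cannot be told apart where both were annotated for counting and strand was not used, and mrpl14 overlaps none in RefSeq.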
